A study of Mus musculus with 10 samples.

Results

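Transcripts of the 9 genes that encode the core subunits of cohesin were followed in the testes of 6-week-old mice. The meiotic subunits are Rec8, Smc1b, Stag3 and Rad21l, and the general subunits are Rad21, Smc1a, Smc3, Stag1 and Stag2. A probe was taken for a subunit where its accession belonged to that gene, whatever its signal. This gave 16 probes for 9 genes, of 23550 gene symbols that the probes of the arrays carried. Of the 16 probes 15 were tested, each with a signal well over background in 5 or more of the 10 testes, and the single probe of Rad21l was not.

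All 10 animals were C57BL/6N males, and each array held the RNA of a single testis. The 5 R animals were born to dams that were given 50% of the mean intake of control dams from 6.5 days post coitum, and unrelated control dams fostered them. The 5 C animals came from dams fed without limit, which also reared them, so that rearing differed between the groups together with the diet of the dam. After weaning both groups ate regular chow freely until 42 days of age. The sources used here do not name litters, so that p-values measure the spread between these 10 animals, some of which may be litter mates.

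Cohesin is a protein ring that holds sister chromatids together and folds chromosomes into loops. The ring is made of a pair of SMC proteins closed by a kleisin, to which a STAG protein is bound. In dividing body cells and spermatogonia the kleisin is RAD21, the SMC pair is SMC1A with SMC3, and the STAG protein is STAG1 or STAG2. In the meiotic rings of spermatocytes REC8 or RAD21L can take the place of RAD21, SMC1B that of SMC1A and STAG3 that of STAG1 and STAG2. These rings form the core of the chromosome axis on which homologous chromosomes pair, and male mice that lack one of the meiotic subunits are infertile. SMC3 serves in both kinds of ring and was placed with the general subunits here.

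All values are log2 signals: processed intensity on the log2 scale, set so that 0 is the 75th percentile of each array, and a change is the mean in R minus the mean in C. Over all 33851 tested probes limma called 38.6% at an adjusted p under 0.05, 21.4% higher and 17.1% lower in R, and the groups did not overlap at 31.4%. The arrays lay on 2 slides: C replicates 1 and 2 and R replicates 1 to 4 on slide 1, and C replicates 3 to 5 and R replicate 5 on slide 2. C replicate 2 stood apart on the first principal component. In the authors' deposited table R replicate 1 was counted as a control and C replicate 5 as a test array, whereas the labels are followed here. With that grouping 0 of the 15 probes were called by limma, 1 of them having an unadjusted p under 0.05, and 0 of all tested probes were called (2567 at an unadjusted p under 0.05). Results are therefore also given without these 3 arrays. Germ cell markers were well above background on every array, among them all 8 markers of late and all 8 of elongating stages, and of the markers fixed for the cells of the testis Amh and Insl3 were not tested.

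In R testes Rad21 was 1.90-fold and Stag2 1.74-fold lower, and both probes of Stag3 were higher. Rad21 and Stag2 each had a single probe, so that no second probe could be compared. Of 9 tested probes of general subunits 4 fell and 0 rose, and the other falls were in Smc3 and Stag1, whose probes did not move alike. Of 6 tested probes of meiotic subunits 2 rose and 0 fell, and both were probes of Stag3. Neither Rec8 nor Smc1b passed the test with any probe. The share of members called, 40%, was near that of all probes, so that the number of calls sets the subunits apart in no way. The slides held unequal numbers of C and R arrays, and with slide as a block limma called 9 of the 15 probes, 4 higher and 5 lower, against 52.7% of all tested probes. The study's criterion of a fold above 1.5 or under 0.66 was met by 3 of the 15 probes, those of Rad21 and Stag2 and 1 of Stag3, against 15.7% of all tested probes. Without C replicates 2 and 5 and R replicate 1 limma called 4 of the 15 probes, against 7546 of all 33851 tested probes. The 4 were 2 of Stag3, that of Rad21 and that of Stag2.

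**Figure D1:**
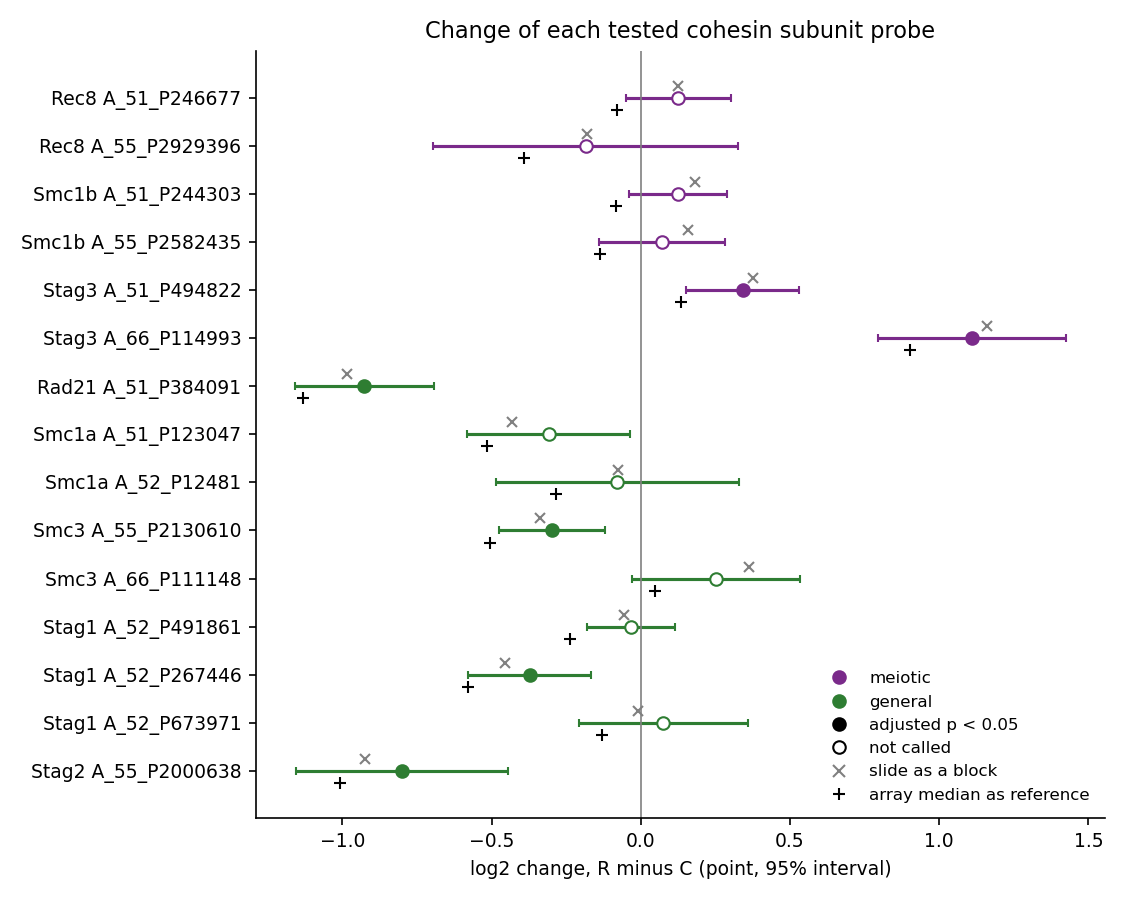
Log2 change (R minus C, horizontal axis) of each of the 15 tested cohesin subunit probes with its 95% interval, 5 arrays per group; filled points have an adjusted p under 0.05, crosses give the change with slide as a block and plus signs that with the array median as reference. Rad21 (-0.93) and Stag2 (-0.80) lie farthest to the left and a Stag3 probe (1.11) farthest to the right.

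Among the kleisins, Rad21 showed the clearest difference. Rad21, on chromosome 15, encodes the kleisin that separase cuts when sister chromatids part in mitosis. The log2 signal of its single probe was 1.33, 1.71, 1.16, 1.15 and 1.47 in C replicates 1 to 5 and 0.44, 0.44, 0.40, 0.45 and 0.47 in R replicates 1 to 5. The groups did not overlap, and the R arrays lay within 0.06 of each other where the C arrays spread over 0.56. Over 5 arrays per group Rad21 fell 1.90-fold (95% interval 1.62 to 2.23, limma adjusted p = 0.00104). Fitting slide as a block gave -0.98, slide 1 alone gave -1.09 and slide 2 alone -0.79, where a single R array stood against 3 C arrays (adjusted p = 0.117). Without the 3 arrays named above it was -0.78 (adjusted p = 0.00486).

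Rec8 encodes the kleisin that keeps sister chromatids joined at centromeres through the first meiotic division. Its bright probe, A_51_P246677, had log2 signals of 4.24, 4.38, 4.19, 4.26 and 4.43 in the C arrays and 4.27, 4.58, 4.35, 4.49 and 4.45 in the R arrays. The groups overlapped, and the change of 0.13 ± 0.08 (SE) was not called (adjusted p = 0.218). Its interval ran from -0.05 to 0.30, and the sign turned with the array median as reference (-0.08). In the authors' deposited table this probe was the only cohesin subunit probe among the 2266 listed, with a log2 ratio of 0.23, a p of 0.00051 and a q of 0.515, under that table's own grouping of the arrays. The second Rec8 probe, A_55_P2929396, was dim, well above background on 4 C and 2 R arrays, with a mean of -4.61 ± 0.39 in C and -4.79 ± 0.41 in R (SD, n = 5, adjusted p = 0.535).

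Rad21l, the kleisin of early prophase axes, could not be measured with its probe. The probe was well above background on C replicate 1 and R replicate 4 only. Its log2 signal was -5.28 in the first and -3.01 in the second, and -7.04 to -5.46 on the arrays without a measured signal. No fold is given.

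**Figure D2:**
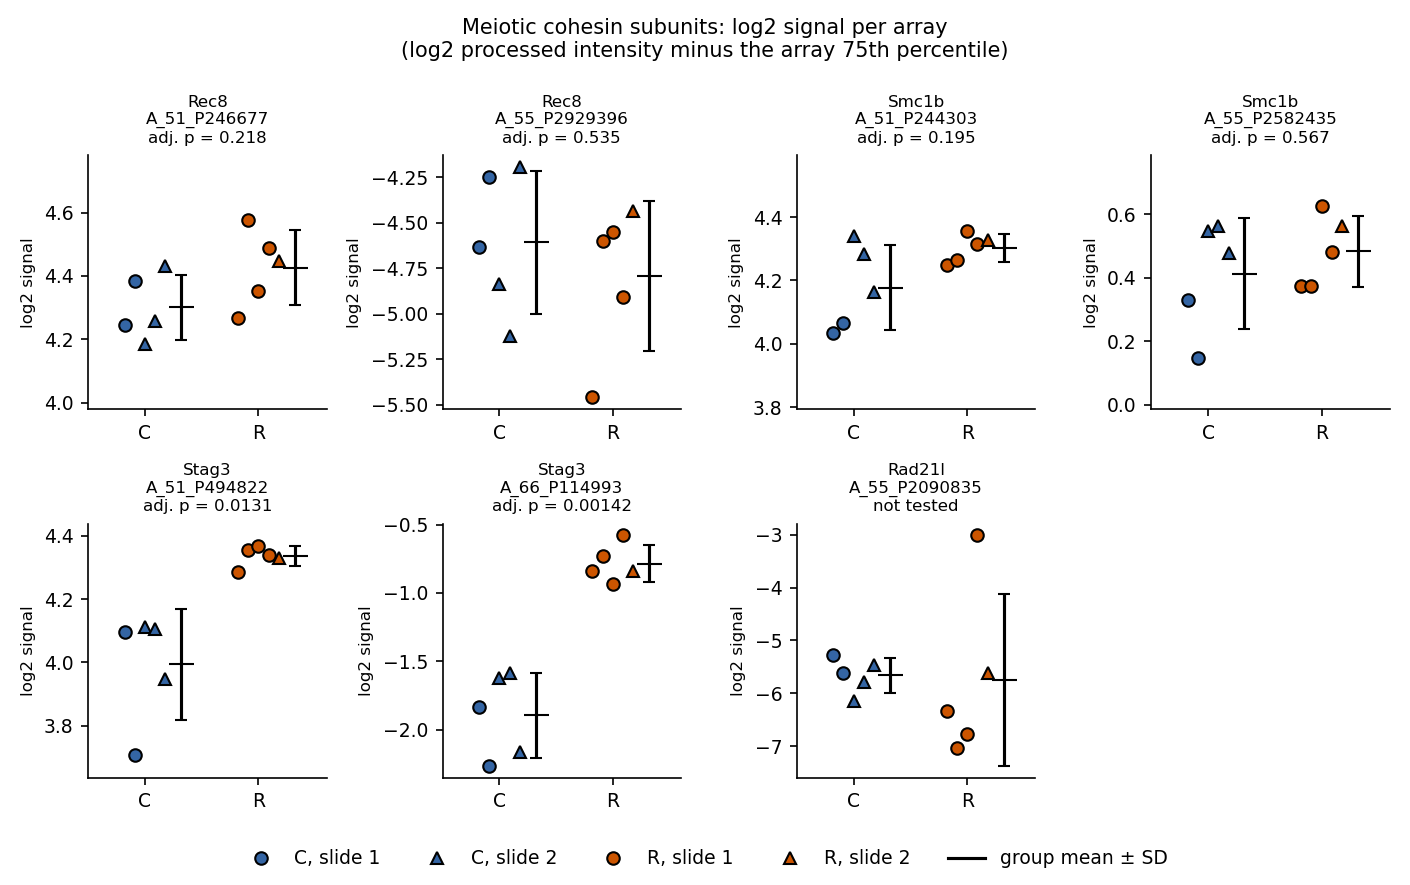
Log2 signal (vertical axis, own scale in each panel) of the 7 probes of meiotic subunits on the 5 C and 5 R arrays, circles for slide 1 and triangles for slide 2, with the group mean and SD as a bar. The C and R points are apart for both probes of Stag3 and overlap for Rec8, Smc1b and Rad21l.

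Among the SMC subunits 1 probe was called, the brighter of the 2 probes of Smc3. Smc1b, on chromosome 15, encodes the SMC protein that can replace SMC1A on meiotic chromosomes. Its bright probe, A_51_P244303, had log2 signals of 4.03, 4.07, 4.34, 4.28 and 4.16 in C and 4.25, 4.26, 4.36, 4.31 and 4.33 in R. The 2 C arrays of slide 1 were the lowest, and the other 3 C arrays lay among the R arrays or just below them. The change was 0.12 ± 0.07 (SE, adjusted p = 0.195, interval -0.04 to 0.29). A block for slide brought a call (0.18, adjusted p = 0.0464), and referring each array to its median turned the sign (-0.08). The other probe, A_55_P2582435, changed by 0.07 ± 0.10 (SE, adjusted p = 0.567), and its sign turned under that reference too (-0.14).

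Smc1a, the general counterpart on chromosome X, had log2 signals of 0.34, 0.51, 0.02, -0.05 and 0.01 in C and -0.11, 0.09, -0.31, -0.14 and -0.24 in R with its bright probe, A_51_P123047. R replicate 2 lay within the C range and the other R arrays below it. The change of -0.31 ± 0.12 (SE) missed the threshold (adjusted p = 0.0694). A block for slide brought a call (-0.43, adjusted p = 0.00812), as did the array median in place of the 75th percentile (-0.51, adjusted p = 0.0271) and slide 1 alone (-0.54, adjusted p = 0.0259). Its dim probe, A_52_P12481, was above background on 4 C and 3 R arrays and changed by -0.08 ± 0.18 (SE, adjusted p = 0.749).

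Smc3, on chromosome 19, encodes the SMC protein common to all cohesin rings. The brighter probe, A_55_P2130610, had log2 signals of 1.71, 1.83, 1.58, 1.57 and 1.70 in C and 1.46, 1.55, 1.25, 1.29 and 1.36 in R. These groups lay close without overlap, and the probe fell 1.23-fold (interval 1.09 to 1.39, adjusted p = 0.0171). The second probe, A_66_P111148, had 0.31, -0.11, 0.58, 0.58 and 0.37 in C and 0.49, 0.51, 0.69, 0.64 and 0.66 in R. It moved the other way by 0.25 ± 0.13 (SE) without passing (adjusted p = 0.132), and it was called higher with slide as a block (0.36, adjusted p = 0.0246) and within slide 1 (0.48, adjusted p = 0.0406). No direction for Smc3 as a gene can be given from these probes: over their mean the change was -0.02 (adjusted p = 0.775). Without the 3 arrays the brighter probe was not called (-0.26, adjusted p = 0.0788).

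**Figure D3:**
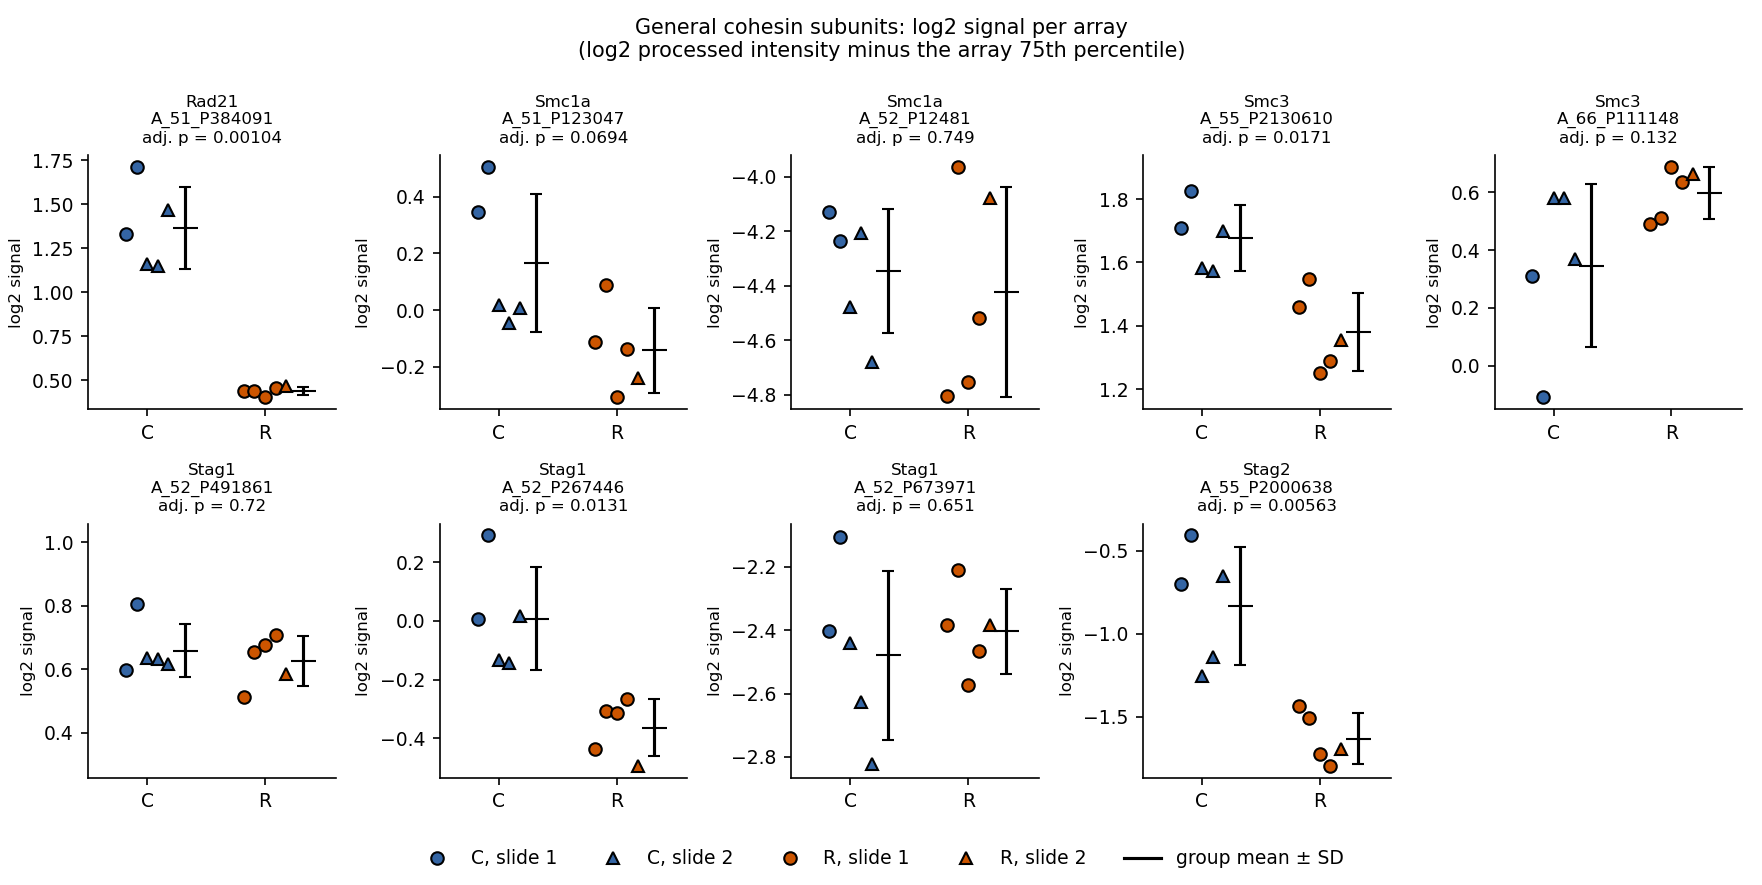
Log2 signal (vertical axis, own scale in each panel) of the 9 probes of general subunits on the 5 C and 5 R arrays, circles for slide 1 and triangles for slide 2, with the group mean and SD as a bar. All R points lie below all C points for Rad21, Stag2, probe A_55_P2130610 of Smc3 and probe A_52_P267446 of Stag1.

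The STAG subunits moved in both directions. Stag3, on chromosome 5, encodes the only STAG protein of the meiotic rings. Its bright probe, A_51_P494822, had log2 signals of 4.10, 3.71, 4.11, 4.11 and 3.95 in C and 4.28, 4.36, 4.37, 4.34 and 4.33 in R. The R arrays lay above every C array and within 0.08 of each other, and C replicate 2 was the lowest. The probe rose 1.27-fold (interval 1.11 to 1.44, adjusted p = 0.0131). The call was lost with the array median as reference (0.13, adjusted p = 0.153) and without R replicate 1 and C replicate 5 (0.34, adjusted p = 0.0571), and it held without C replicate 2 as well as these (0.24, adjusted p = 0.0244).

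The dimmer Stag3 probe, A_66_P114993, showed the widest rise among the subunits. Its log2 signal was -1.84, -2.27, -1.62, -1.59 and -2.17 in C and -0.84, -0.73, -0.93, -0.58 and -0.84 in R. The groups were 0.65 apart, against a spread of 0.35 within R and 0.68 within C. It rose 2.16-fold (interval 1.73 to 2.69, adjusted p = 0.00142), with a change of 0.90 under the array median (adjusted p = 0.00212), 1.28 within slide 1, 0.95 within slide 2 (adjusted p = 0.148) and 0.91 without the 3 arrays (adjusted p = 0.00517). Both probes of Stag3 thus rose at different sizes, and the ratio between them is given below.

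The promoters of Smc1b and Stag3 are shown because E2F6, a repressor of the E2F family, is known to keep both genes silent outside the germ line. E2F proteins bind sites with the core TTCCCGC. The sequences run 5′ to 3′ from 110 bases before to 10 bases after the transcript start used by the RefSeq promoter table (GRCm38.p6), with matches to TTCCCGC on either strand in capitals, and Rec8 is added as a meiotic subunit without a match. For Stag3 and Rec8 that start lies inside the annotated bounds of the gene. The same holds for Stag1 and Rad21l, whose promoters are not shown but are counted below.
Smc1b, chr15:85131948-85132067, minus strand: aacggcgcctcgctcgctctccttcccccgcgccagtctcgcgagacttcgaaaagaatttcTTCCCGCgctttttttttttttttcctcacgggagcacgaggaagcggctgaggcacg
Stag3, chr5:138280399-138280518, plus strand: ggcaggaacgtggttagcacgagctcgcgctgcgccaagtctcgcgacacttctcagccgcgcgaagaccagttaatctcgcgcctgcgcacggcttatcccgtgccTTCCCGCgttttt
Rec8, chr14:55618056-55618175, plus strand: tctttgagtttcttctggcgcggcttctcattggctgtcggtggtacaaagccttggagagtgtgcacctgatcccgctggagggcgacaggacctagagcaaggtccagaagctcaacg
The match began 48 bases before the start in Smc1b and spanned the start in Stag3. In windows from 250 bases before to 50 after the start, it was found in 4 of the 7 subunit promoters at hand, which were those of Smc1b, Stag3, Stag1 and Smc1a. It was found in 4.6% of 32851 such windows over all genes. Median GC content over those windows was 52.7%, against 58.3% to 73.7% in the 4 subunit windows with a match. The counts were not adjusted for GC content. The match stood in 2 of 4 meiotic and 2 of 3 general promoters, which are too few to compare the classes. The promoters of Rad21 and Stag2 were not at hand, so that the match could not be set against the direction of change. The motif was chosen after the promoters had been read.

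Stag2, on chromosome X, encodes the STAG protein that prevails in most body cells. The log2 signal of its single probe was -0.70, -0.41, -1.25, -1.14 and -0.65 in C and -1.44, -1.51, -1.73, -1.80 and -1.69 in R. The C arrays were spread widely, and the highest R array lay 0.18 below the lowest C array. Stag2 fell 1.74-fold (interval 1.36 to 2.23, adjusted p = 0.00563), with changes of -0.92 under a slide block, -1.06 on slide 1, -0.68 on slide 2 (adjusted p = 0.217) and -0.65 without the 3 arrays (adjusted p = 0.0204).

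Stag1 encodes the other general STAG protein and had 3 probes that did not move alike. The brightest, A_52_P491861, averaged 0.66 ± 0.08 over 5 C arrays and 0.63 ± 0.08 over 5 R arrays (SD), a change of -0.03 with an interval of -0.18 to 0.12 (adjusted p = 0.72). Probe A_52_P267446 had log2 signals of 0.01, 0.29, -0.13, -0.14 and 0.02 in C and -0.44, -0.31, -0.31, -0.27 and -0.50 in R. The groups of that probe did not overlap, and it fell 1.29-fold (interval 1.12 to 1.49, adjusted p = 0.0131, and -0.26 with an adjusted p of 0.0639 without the 3 arrays). The dimmest, A_52_P673971, changed by 0.08 ± 0.13 (SE, adjusted p = 0.651), and its sign turned with the array median as reference (-0.13).

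The meiotic and general subunits were also set against each other within each array. Over the brightest probe of each tested gene, the mean of the 3 meiotic subunits differed by 0.20 and that of the 5 general subunits by -0.47, although Rec8, Smc1b, Smc1a and the brightest Stag1 probe were not called. Each mean depends on the scaling: referring arrays to their median gave -0.0093 and -0.68. Relative to the C mean, the meiotic minus general difference was -0.08, -0.39, 0.23, 0.23 and 0.00 in C and 0.54, 0.60, 0.75, 0.73 and 0.72 in R. Each R array therefore lay above each C array, by 0.67 on average with an SD of 0.26 in C and 0.09 in R. That the groups did not overlap was fixed beforehand by the ranges of the single probes. No share over all genes was computed for it. The difference itself is the same under both references, and it was 0.57 without the 3 arrays, 0.89 within slide 1 and 0.57 within slide 2. It describes genes chosen with their changes known, and no test is attached to it.

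**Figure D4:**
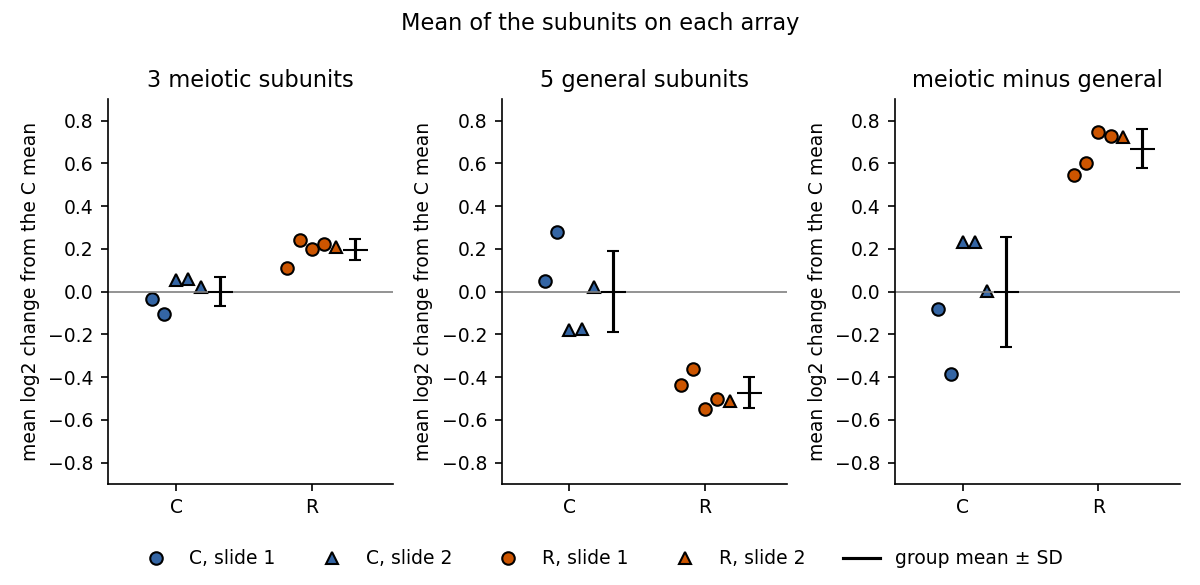
Mean log2 change from the C mean (vertical axis) of 3 meiotic subunits, of 5 general subunits and of their difference on each of the 5 C and 5 R arrays, brightest tested probe of each gene, circles for slide 1 and triangles for slide 2, bars for mean and SD. The difference lies between -0.39 and 0.23 in C and between 0.54 and 0.75 in R.

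Meiotic subunits were also compared with their general counterparts. For the kleisins, the within-array ratio of Rec8 to Rad21 was 2.07-fold higher in R, at 1.05 on the log2 scale with SDs of 0.16 in C and 0.11 in R. For the STAG proteins the ratio of Stag3 to Stag2 was 2.21-fold higher (SDs of 0.51 and 0.17) and that of Stag3 to Stag1 1.29-fold higher (0.25 and 0.05). The groups did not overlap for these 3 ratios. For all 3 this was fixed beforehand by the ranges of the single genes in C and in R. For Stag3 to Stag2 the groups of each gene lay apart in opposite directions. The ratios restate the values of the single genes, and no share over all genes was computed for them. For the SMC proteins the ratio of Smc1b to Smc1a was 1.35-fold higher, with groups that overlapped (SDs of 0.36 and 0.19). Most of the Rec8 to Rad21 shift lay in Rad21, since Rec8 changed by 0.13 and Rad21 by -0.93.

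Probes of the same gene were compared within each array, where scaling has no part. The log2 ratio of each other probe to the brightest one was fitted over 7177 such pairs, of which 39.3% were called by limma and 29.8% had groups that did not overlap. Of the 7 pairs in cohesin genes 3 were called. The ratio of the dim to the bright Stag3 probe rose 1.70-fold (adjusted p = 4.6e-04), with every R array above every C array. This ratio held within slide 1 (0.85, adjusted p = 0.0106) and without the 3 arrays (0.67, adjusted p = 0.00863), and was 0.67 within slide 2 (adjusted p = 0.158). The ratio of the second Stag1 probe to the brightest fell 1.27-fold (adjusted p = 0.00293), again without overlap, and held without the 3 arrays (-0.29, adjusted p = 0.0331). The Smc3 ratio rose 1.46-fold (adjusted p = 0.032) with groups that overlapped. That call was lost when any 1 of C replicates 1 and 5 and R replicates 3, 4 and 5 was left out (adjusted p up to 0.069), with array weights (0.34, adjusted p = 0.0697), without R replicate 1 and C replicate 5 (0.60, adjusted p = 0.0729) and without the 3 arrays (0.40, adjusted p = 0.0953). The pairs of Rec8, Smc1b and Smc1a and the other pair of Stag1 did not pass. The place of each probe on its transcript was not used here, and unequal change of probes shows only that they report unequal things.

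**Figure D5:**
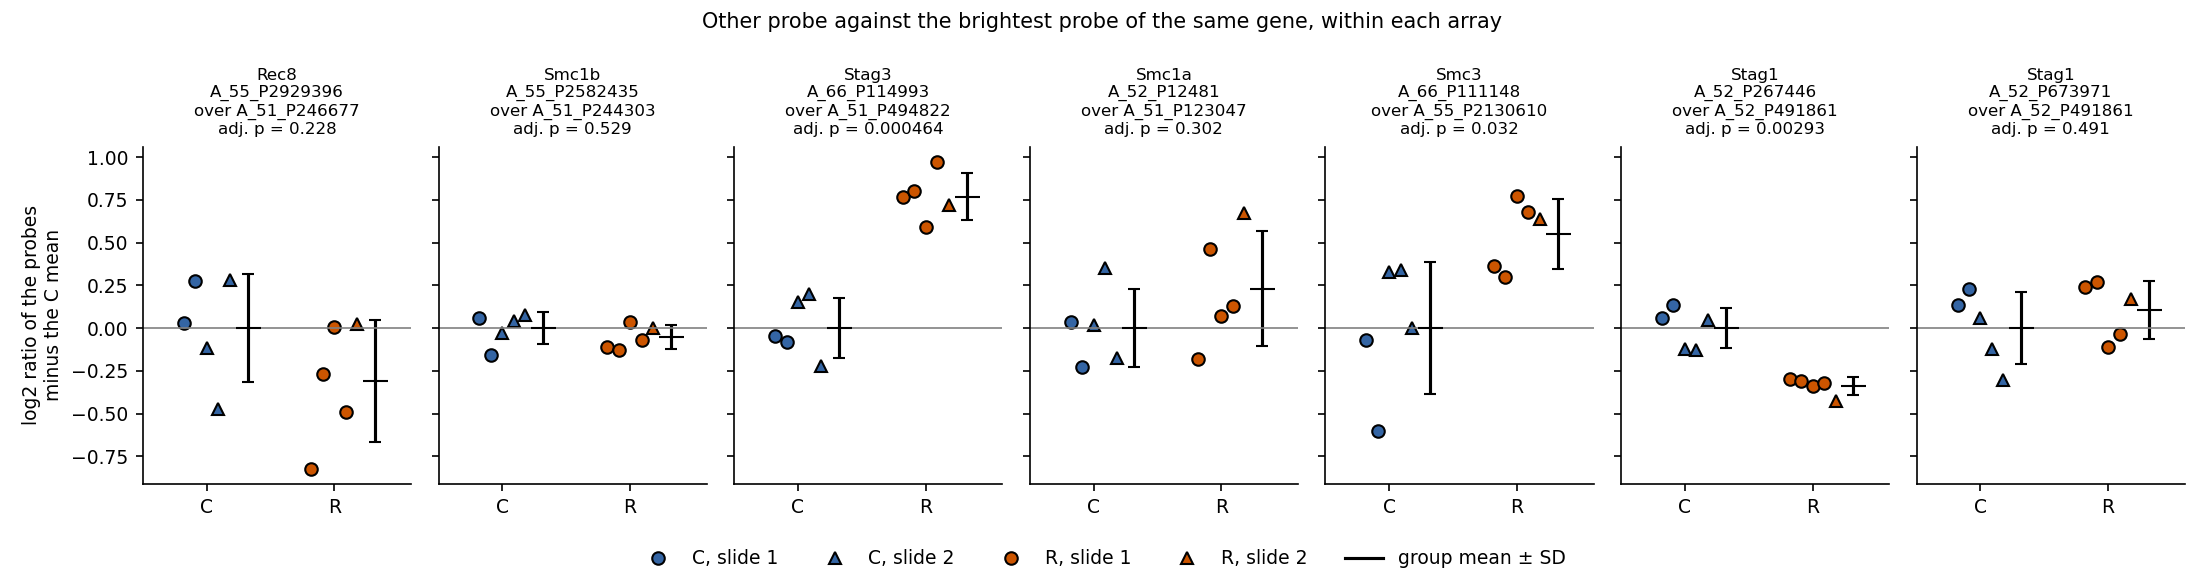
Log2 ratio of each other probe to the brightest probe of its gene, minus the C mean (vertical axis), on the 5 C and 5 R arrays for the 7 probe pairs of cohesin genes; circles are slide 1, triangles slide 2, bars mean and SD. For Stag3 all R points lie between 0.59 and 0.97 and all C points between -0.22 and 0.20.

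Regulators of cohesin were called in both directions. Of 20 tested genes that load, release, acetylate, protect or cut cohesin or direct it to sites, 5 rose and 5 fell, with a median of -0.01. Over all 16835 genes, taken by the brightest tested probe, 35.6% were called, 15% higher and 20.6% lower, with a median of -0.03. Referring each array to its median instead gave medians of -0.22 for the regulators and -0.23 for all genes, since that reference moves every change by -0.21. Under it 2 regulators rose and 10 fell, and 4 rose and 7 fell after quantile normalisation. Over all genes the median reference gave 923 higher and 6271 lower calls. Nipbl, which loads cohesin onto chromatin, rose 1.50-fold from 2.21 ± 0.35 to 2.80 ± 0.11 (SD, adjusted p = 0.0156), and its other probe had the same sign. Esco2, an acetyltransferase that acts on SMC3 during DNA replication, fell 1.84-fold from -2.43 ± 0.28 to -3.31 ± 0.18 (adjusted p = 0.00263).

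Further regulators changed less. Ctcfl, the germ line paralogue of the loop anchor CTCF, rose 1.45-fold (adjusted p = 0.00445). Aurkb, a kinase of the chromosomal passenger complex, fell 1.32-fold (adjusted p = 0.0078). Pds5b, which helps release and protect cohesin, fell 1.35-fold (adjusted p = 0.0105), but its other probe had the opposite sign. Esco1, the other acetyltransferase, fell 1.19-fold (adjusted p = 0.0108), with 1 of its 2 other probes of the same sign. Hdac8 and Sgo2b were not tested.

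Genes that work next to cohesin on the meiotic axis were called in both directions. Of 12 tested genes of the chromosome axis and synapsis 4 fell and 1 rose, with a median of -0.23. The share called, 41.7%, was near the 35.6% of all genes. With the array median as reference 9 fell and 1 rose, against 6271 and 923 of all 16835 genes. Tex12 fell 2.19-fold, Hormad1 1.96-fold, Sycp3 1.58-fold and Sycp1, which forms the transverse filaments of the synaptonemal complex, 1.55-fold (adjusted p between 9.97e-04 and 0.0039). Sycp2, a lateral element protein, rose 1.46-fold (adjusted p = 0.00116), as did both probes of Stag3, while Rec8 and Smc1b were not called.

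The other SMC complexes showed a mixture as well. Of 8 condensin genes 4 fell and 1 rose, with a median of -0.28. This was a share of 62.5% called, against 35.6% of all genes, 15% higher and 20.6% lower. Ncapg2 fell 1.80-fold (adjusted p = 0.00159) and Ncaph2 1.36-fold, Ncapd3 1.33-fold and Smc2 1.24-fold, whereas Smc4 rose 1.36-fold (adjusted p = 0.00358), with 1 of its 2 other probes of the same sign. Neither of the other 2 probes of Smc2 had its sign. Of 7 genes of the SMC5/6 complex, which acts in DNA repair, Nsmce4a fell 1.29-fold and Nsmce3 1.23-fold and Smc5 rose 1.19-fold (adjusted p between 0.00992 and 0.02). That share called, 42.9%, was near the share of all genes. The call of Smc5 was lost when arrays were referred to their median (0.04, adjusted p = 0.705).

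Markers of several cell types moved in the same animals, in which 15% of all genes were called higher and 20.6% lower. Of 10 markers of early spermatocytes 6 fell and 0 rose (median -0.41), and their mean log2 signal ran from 1.80 to 2.04 in C and from 1.43 to 1.56 in R. Sycp1, Sycp3 and Hormad1 stand in this list as well as in that of the axis. Of 8 markers of late spermatocytes 1 fell (median 0.01), with means of 4.01 to 4.14 in C and 3.98 to 4.12 in R. None of 7 round spermatid markers was called by limma, at an adjusted p of 0.0638 or more, though 2 were lower under the array median. Of 8 elongating spermatid markers 2 fell, Odf1 (adjusted p = 0.0327) and Oaz3 (adjusted p = 0.00627), with means of 6.67 to 6.90 in C and 6.62 to 6.81 in R. Of 13 spermatogonial markers 6 fell and 1 rose, with means of -0.70 to -0.25 in C and -0.90 to -0.78 in R. Under the array median 9 early spermatocyte and 8 spermatogonial markers fell and 0 rose. Of late spermatocyte and elongating spermatid markers 2 and 3 fell under it. Over all 16835 genes that reference gave 6271 lower and 923 higher calls.

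Of 12 tested Sertoli cell markers 10 fell and 1 rose, with means of 2.96 to 3.66 in C and 2.70 to 2.87 in R. Of 9 macrophage markers 6 fell, with means of -2.09 to -1.41 in C and -2.89 to -2.07 in R. Of 7 tested Leydig cell markers 3 fell. Under the array median 9 macrophage and 4 Leydig cell markers fell, and the Sertoli cell counts stayed the same. Of 6 endothelial and 5 peritubular myoid markers 3 and 1 rose, and 2 and 0 did so under the array median. In whole testis, fewer cells of a type and less RNA per cell cannot be told apart, and the part of these cell types in the changes of Rad21, Stag2 and Stag3 was not tested.

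The genes whose pattern over the 10 arrays was most like that of a meiotic subunit differed from subunit to subunit. Likeness is Pearson's r of the brightest probes over all 10 arrays, which share group and slide. Genes picked this way tend to share the change of the subunit in R, so that their direction is no further result. Stag3 was closest to Xpo5 (r = 0.994), Rims2 (0.993) and Ccdc158 (0.991), which all rose in R. Smc1b was closest to Ybx3 (0.977), Wdfy1 (0.975) and Ceacam20 (0.964). Rec8 was closest to Znrd1 (0.941), S1pr3 (0.901) and AI506816 (0.898), and none of these 3 was called by limma (adjusted p between 0.216 and 0.326).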

How the data were processed

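Testis RNA of 10 mice was measured on 1-colour Agilent arrays. The authors deposited spot intensity values, background-subtracted within each array and not normalised between arrays, per the file headers. The submitters' processing notes name Agilent Feature Extraction 12.0.3.1. The authors' deposited table of 2266 probes holds scaled intensity values, a log2 ratio, p-values and q-values, and 10 of its columns of per-sample values were not used. Processed intensities were log2-transformed and the 75th percentile of each array over its non-control spots was subtracted. Spots of a probe were then averaged, without outlier spots, and a probe left with no value on an array was not tested. Probes well above background on at least 5 arrays entered lmFit and eBayes of limma (version 3.58.1, under R version 4.3.3), with 2-sided tests adjusted by Benjamini-Hochberg over all 33851 tested probes. The number of arrays limits the precision.

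Probes were named by accession in a RefSeq gene table (33767 of 56605 probes), and 234 by the deposited symbol. A gene stands for its brightest tested probe. Named genes are the subunits, list members that met the study's criterion, up to 4 further called members of each list by p, and the 3 genes most like each meiotic subunit. The subunits and lists were chosen with earlier results of these data known, and the comparison of probe pairs was added after the data were seen. The fit was tested on simulated data. Alternatives covered background correction (normexp on median spot signals, since mean signals were not used here), normalisation, reference, filter, slide, grouping, array weights, variance model, probe choice and each array left out.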

Additional observations from a re-analysis of the deposited data

Results flagged for a closer look

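In the C group 1 value lay far from the others of its probe. The brightest Stag1 probe, A_52_P491861, read 0.805 in C replicate 2, while the other 4 C arrays lay between 0.60 and 0.64. Over the 16 probes and both groups 32 sets of 5 values were examined, and chance alone flags about 1 in 20. Without C replicate 2 the change of this probe was 0.01 in place of -0.03, and it was not called either way.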

How the results depend on the processing

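Leaving out each array in turn gave 6 to 7 called subunit probes, 8 to 12 regulators, 9245 to 13550 probes in all (13059 with all arrays) and a class difference of 0.57 to 0.73. On slide 2 alone, and with the grouping of the deposited table, limma called 0 subunit probes, 0 regulators and 0 probes in all, with 8750 and 2567 of all probes, and 3 and 1 subunit probes, at an unadjusted p under 0.05. Without R replicate 1 and C replicate 5 it called 3 subunit probes, 3 regulators and 6116 probes in all. The study's criterion left 3 subunit probes and 5309 in all, being stricter by construction. Leaving out C replicates 2 and 5 and R replicate 1, chosen after seeing the data, left 7546 in all. The class difference was 0.89 on slide 1 and 0.45 with the deposited grouping. The share of all calls that were higher was 55.6%, and 44.7% after quantile normalisation and 27.6% with the array median.

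Signs turned for uncalled probes only. With the array median these were the bright Rec8 probe (-0.081), both Smc1b probes (-0.082 and -0.14) and Stag1 probe A_52_P673971 (-0.13). That Stag1 probe also turned after quantile normalisation (-0.069), with slide as a block (-0.010), on slide 1 (-0.15), with the deposited grouping (-0.0998) and without its 2 regrouped arrays (-0.015), and ranged from -0.010 to 0.17 over arrays left out. Stag1 probe A_52_P491861 gave 0.011 with the deposited grouping, 0.033 without the 3 arrays and -0.052 to 0.0052 over arrays left out. The dim Rec8 probe gave 0.28 on slide 2, 0.32 with the deposited grouping, 0.086 without the 2 arrays, 0.24 without the 3 and -0.31 to -0.02 over arrays left out, and the mean of both Rec8 probes gave -0.029. The dim Smc1b probe gave -0.040 with array weights, and the dim Smc1a probe 0.38 on slide 2 and -0.19 to 0.017 over arrays left out. Of the probe ratios, that of Stag1 A_52_P673971 gave -0.089 on slide 1, -0.11 with the deposited grouping and -0.0023 without the 2 arrays. That of Rec8 gave 0.12, 0.13 and 0.0032 on slide 2, with the deposited grouping and without the 3 arrays, and ranged from -0.43 to -0.18 over arrays left out. That of Smc1b gave 0.022 with the deposited grouping. The causes were not tested.

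No paired analysis was possible because the labels give no number shared by animals of both groups, and the replicate numbers used here only name the arrays. Dim probes near background limit what can be said of Rad21l and of the second probes of Rec8 and Smc1a.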
